A study of Mus musculus with 4 samples.

Results

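B cells of the mouse renal capsule, the fibrous covering of the kidney, were taken as the barcodes that carried transcripts of the B cell receptor subunits Cd79a and Cd79b or of the surface protein Ms4a1 (CD20). A barcode counted as a B cell when the UMIs (unique molecular identifiers, each standing for 1 captured transcript) of these 3 genes summed to at least 3. It also had fewer than 5 UMIs of Jchain, 0 of Cd3e and fewer than 6 of C1qa, C1qb and C1qc together, which sets plasma cells, T cells and macrophages aside. Barcodes entered the search when they had 500 UMIs and 300 genes or more, and no more than 20% of their UMIs from mitochondrial genes. Of the 37361 such barcodes, 1727 met the rule. They numbered 630 and 875 in the aged libraries and 94 and 128 in the young libraries.

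The libraries compare capsules of aged mice with those of young mice, as 2 libraries per age of untreated whole capsule, digested with an enzyme blend and profiled with a droplet kit that reads the 3′ ends of transcripts. In the sources used here the ages, strain, sex and mice per library are not stated. The replicates of an age may therefore be technical, and every p-value below measures the spread between these 4 libraries alone. As deposited, the matrices held 51180311 and 65118489 UMIs in the aged libraries and 68052444 and 70925446 UMIs in the young libraries. The B cells held 3130376 and 2771529 UMIs in aged capsules, against 268117 and 388569 in young capsules, so the young values rest on far fewer transcripts. A B cell had a median of 3666.5 and 2313 UMIs in the aged libraries and of 1980 and 2121.5 UMIs in the young libraries, so aged replicate 1 was the deepest per cell. The median mitochondrial share of its UMIs was 3.05% and 3.31% in aged and 5.38% and 5.44% in young libraries. The part of this difference in the results below was not tested. Pairs of libraries shared between 22 and 40 cell barcodes, and 0 of those were B cells.

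A B cell carries on its surface an immunoglobulin made of a heavy and a light chain, each of which joins a variable (V) segment chosen during development to a constant region. Naive B cells make IgM and IgD together. They recirculate through follicles with the help of chemokine receptors, and carry the low-affinity IgE receptor CD23 (Fcer2a). B-1 cells, known mainly from the body cavities of mice, carry a restricted set of V segments, have little IgD and CD23 and supply much of the natural IgM in blood. Plasma cells are the antibody-secreting end state, in which immunoglobulin transcripts dominate the cell.

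Pairs of V segments recurred among the B cells of aged capsules, and the segments of the 3 pairs treated most fully below are printed here because these combinations are what tells those cells apart. Each sequence is the last 120 coding bases of the germline segment in GRCm38 with GENCODE M21 coordinates, on the strand of the gene, 5′ to 3′. Capitals run from the last in-frame cysteine codon to the 3′ end of the segment, the germline start of the third hypervariable loop. The heavy and light partners of a pair follow each other. Ighv11-2 lies at chr12:114048241-114048360 (minus strand), Igkv14-126 at chr6:67896523-67896642 (plus strand), Ighv12-3 at chr12:114366521-114366640 (minus strand), Igkv9-129 at chr6:67840147-67840266 (plus strand), Ighv1-82 at chr12:115952538-115952657 (minus strand) and Igkv12-44 at chr6:69814631-69814750 (minus strand).
Ighv11-2: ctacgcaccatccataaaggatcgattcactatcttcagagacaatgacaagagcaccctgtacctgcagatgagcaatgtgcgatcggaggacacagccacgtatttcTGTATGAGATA
Igkv14-126: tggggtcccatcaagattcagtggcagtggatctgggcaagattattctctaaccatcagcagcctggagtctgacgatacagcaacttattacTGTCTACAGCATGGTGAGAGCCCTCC
Ighv12-3: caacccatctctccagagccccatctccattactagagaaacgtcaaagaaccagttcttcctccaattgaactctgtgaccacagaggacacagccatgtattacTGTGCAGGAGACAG
Igkv9-129: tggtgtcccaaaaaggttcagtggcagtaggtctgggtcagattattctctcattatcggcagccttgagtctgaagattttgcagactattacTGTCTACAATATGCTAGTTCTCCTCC
Ighv1-82: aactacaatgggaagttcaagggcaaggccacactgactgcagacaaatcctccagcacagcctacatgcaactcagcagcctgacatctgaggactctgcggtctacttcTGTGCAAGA
Igkv12-44: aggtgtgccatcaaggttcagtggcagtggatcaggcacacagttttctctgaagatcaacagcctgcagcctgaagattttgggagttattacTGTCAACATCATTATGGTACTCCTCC
Within this stretch the nearest other segment of the annotation was Ighv11-1 for Ighv11-2, with 98.3% of bases identical, and Igkv9-124 for Igkv9-129, with 96.7%. Ighv1-82 was 95.8% identical to Ighv1-80, Igkv12-44 92.5% to Igkv12-46, Igkv14-126 88.3% to Igkv14-111 and Ighv12-3 80.0% to Ighv3-8. Reads of near-identical segments can be split or lost in counting, so the segment names are as the deposited counts assign them.

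The label was checked on B cell genes that the rule did not use, of which all 12 in the marker list were detected in every library. Levels set across cell classes are unscaled CPM, the UMIs of a gene relative to all UMIs of the class in that library. Pax5, the factor that maintains B cell identity, stood at 180 and 171 CPM in aged B cells and at 321 and 239 CPM in young B cells. It was near 0 in T cells and macrophages of the same libraries, so this gene matches the label. Ighm was present in 98.5% and 98.2% of aged and in 96.6% and 99.1% of young barcodes with at least 6 UMIs of the rule genes. It was also present in 22.9% and 24.2% of aged and in 8.32% and 7.20% of young barcodes with 0 such UMIs. Few barcodes lay near the threshold. Those with exactly 2 rule UMIs numbered 6 and 5 in aged and 5 and 4 in young libraries, and those with exactly 3 numbered 3 and 6 in aged and 2 and 3 in young libraries.

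Transcripts of other cell types were also present in these barcodes, and their amount differed with age. The 10 fibroblast markers, all detected in every library, summed to 1394 and 2851 CPM in aged B cells and to 6725 and 14746 CPM in young B cells. A separate count of fibroblast genes took in fewer UMIs, 2580 and 4427 in aged and 899 and 3332 in young B cells. Of the UMIs in that count the 5 richest barcodes held 55.4% and 22.7% in the aged libraries and 91.2% and 79.3% in the young libraries. B cells with at least 3 UMIs of the collagen and matrix genes Col1a1, Col1a2, Col3a1 and Dcn made up 2.70% and 4.69% of aged and 9.57% and 14.1% of young B cells. Macrophage markers summed to 1612 and 2840 CPM in aged and 1473 and 1948 CPM in young B cells, plasma cell markers to 1073 and 1072 CPM in aged and 563 and 613 CPM in young B cells, and T cell markers to at most 152 CPM. Apoe alone gave 1149 and 2117 CPM of the macrophage sums in aged and 738 CPM in B cells of young replicate 1. Mzb1, a gene that some B cells also make, gave 938 and 898 CPM of the plasma cell sums in aged and 425 and 502 CPM in young B cells. Endothelial markers summed to 145 and 118 CPM in aged and 321 and 476 CPM in young B cells. In young replicate 2 a single barcode held 2134 of the 2136 haemoglobin UMIs. Barcodes marked as likely doublets by Scrublet numbered 17 and 57 among aged and 2 and 6 among young B cells. They were kept, and were left out in an alternative.

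B cells were several times more frequent among the cells recovered from aged capsules. They made up 9.32% (95% exact binomial interval 8.63 to 10.0) and 7.31% (6.85 to 7.79) of barcodes in the aged libraries, against 1.05% (0.846 to 1.28) and 1.33% (1.11 to 1.58) in the young libraries. Both aged shares lay above both young shares, and the intervals, which cover counting error only, did not overlap between the ages. The mean share was 8.31 ± 1.42% in aged and 1.19 ± 0.20% in young capsules (SD, n = 2 each), a ratio of 7.0. The exact permutation test, two-sided, gave p = 0.33, the smallest that 2 libraries against 2 allow. Thinning every barcode to 1000 UMIs gave 8.86% and 6.68% in aged and 0.936% and 1.17% in young libraries, a ratio of 7.38.

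**Figure D1:**
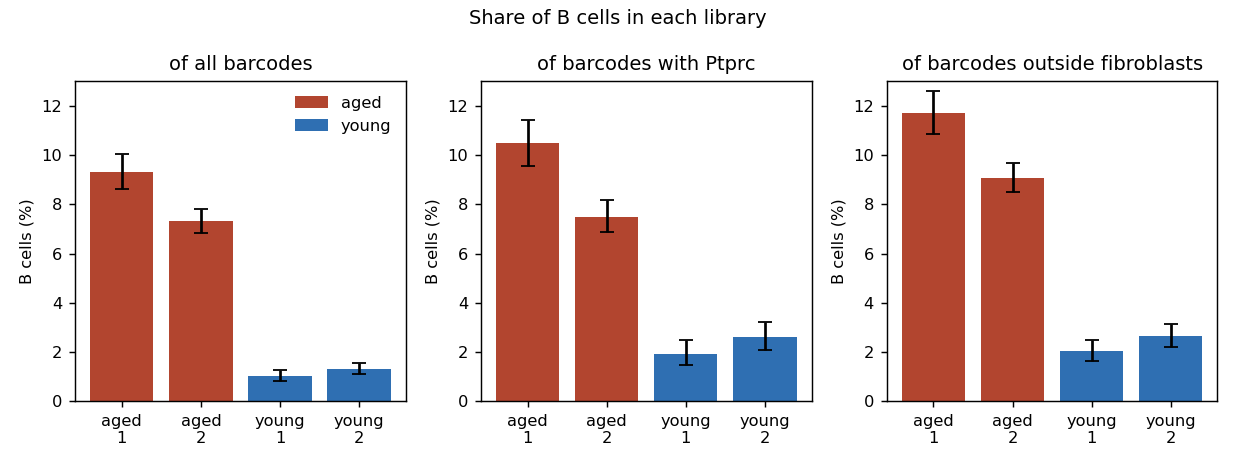
B cells as a percentage of all barcodes, of barcodes with a UMI of the pan-leukocyte gene Ptprc (B cells with Ptprc only), and of barcodes outside fibroblasts, with 1 bar per library and the 95% exact binomial interval as error bar. The aged libraries stand at 9.32% and 7.31% of all barcodes and the young libraries at 1.05% and 1.33%, and the distance narrows when only cells with Ptprc are counted.

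The size of that difference depended on the population it was set against. Among barcodes with a UMI of Ptprc (CD45, carried by all leukocytes), B cells with Ptprc made up 10.5% and 7.5% in the aged and 1.93% and 2.61% in the young libraries, a ratio of 3.96. Outside fibroblasts the shares were 11.7% and 9.07% in aged and 2.04% and 2.66% in young libraries, a ratio of 4.43. Set against T cells there was no separation of the ages: 0.411 and 0.296 B cells per T cell were recovered from aged capsules and 0.355 and 0.595 from young capsules. Plasma cells moved more than B cells, with 6.63 and 3.76 B cells per plasma cell in aged capsules, against 23.5 and 128 in young capsules. The young values of that last ratio rest on 4 and 1 plasma cells.

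Most capsule B cells of both ages were of the IgM and IgD type. Among B cells with at least 3 heavy chain UMIs, Ighm was the leading heavy chain in 90.6% and 92.8% of aged and in 85.2% and 88.3% of young cells. Ighd led in 8.71% and 6.92% of aged and in 14.8% and 11.7% of young cells. A cell counted as switched when its UMIs of switched heavy chains (IgG, IgA or IgE) summed to at least 3 and exceeded those of Ighm and Ighd together. Switched cells numbered 4 of 630 (0.635%) and 2 of 875 (0.229%) in aged capsules. In young capsules they numbered 0 of 94 and 0 of 128, which allows shares of up to 3.19% and 2.34%, so a difference was not detectable at this depth. At 10 UMIs of switched chains there was no such B cell in any library, while 7 of 95 and 11 of 233 aged plasma cells counted as switched at 3 UMIs.

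The light chains were mostly kappa. The lambda share, over B cells with at least 5 light chain UMIs, was 53 of 629 (8.43%) and 82 of 872 (9.40%) in aged and 13 of 93 (14.0%) and 13 of 126 (10.3%) in young capsules. The aged shares lay below the young shares, but their 95% exact binomial intervals overlapped. The intervals were 6.38 to 10.9 and 7.55 to 11.5% in aged and 7.66 to 22.7 and 5.61 to 17.0% in young libraries. The means were 8.91 ± 0.691% in aged and 12.1 ± 2.59% in young capsules (SD, n = 2 each, exact permutation p = 0.33, two-sided). Iglc2 and Iglc3 are 94.9% identical over 452 bases, so counts cannot be relied on to divide between them. Between 94.5% and 98.9% of B cells carried UMIs of these 2 genes, kappa cells included, so a lambda UMI alone does not mark a lambda cell. A cell counted as lambda when its lambda UMIs exceeded those of Igkc. The lesser chain held at least 20% of light chain UMIs in 56.9% and 55.0% of aged and 59.1% and 51.6% of young cells.

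The kit reads the 3′ ends of transcripts, whereas V segments lie near the 5′ end, and a V segment was counted in a minority of B cells. A heavy V segment was counted in 30.5% and 26.3% of aged and in 27.7% and 26.6% of young B cells. A light V segment was counted in 48.1% and 37.8% of aged and in 19.1% and 27.3% of young B cells. Both chains were seen together in 106 and 87 aged cells and in 5 and 9 young cells, too few in young capsules to describe how often pairs recur. In T cells, macrophages and fibroblasts, which do not make these transcripts, a heavy V segment was counted in at most 1.51% and a light V segment in at most 2.74% of the barcodes of a library.

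The V repertoire of aged B cells was wide but held repeated pairs. The effective number of heavy V segments, which weighs segments by their share of cells, was 35.1 and 37.5 in aged B cells and 15.8 and 20.7 in young B cells. The young values are bounded by their 26 and 34 cells. In aged plasma cells it was 7.0 and 7.84, from 89 and 229 cells. Among aged B cells with both chains, 7 of 80 different pairs and 8 of 59 were found in more than 1 cell, and these pairs covered 33 and 36 cells. Young B cells had 0 repeated pairs among 5 and 9.

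The pair of Ighv11-2 and Igkv14-126, whose receptor binds phosphatidylcholine and is a textbook receptor of mouse B-1 cells, was present in B cells of both aged libraries. It was the leading pair of 10 of 106 B cells (9.43%) in aged replicate 1 and of 4 of 87 (4.60%) in aged replicate 2. Among plasma cells it was the leading pair of 44 of 89 (49.4%) and 87 of 229 (38.0%) in the same libraries, so it was the most frequent plasma cell pair in both. It also led in 2 of the 4 plasma cells of young replicate 1. Ighv11-2 alone was found in 26 of 630 (4.13%) and 15 of 875 (1.71%) aged B cells, in 0 of 94 and 0 of 128 young B cells. In T cells, macrophages and fibroblasts it was found in 0.718%, 0.737% and 0.654% of the barcodes of aged replicate 1 and in 0.574%, 0.964% and 1.16% of those of aged replicate 2. The interval of the B cell share in aged replicate 2, 0.963 to 2.81%, overlaps the intervals of macrophages and fibroblasts there, 0.612 to 1.44% and 0.765 to 1.68%.

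Ighv12-3 was found with Igkv9-129 in 9 of 106 B cells (8.49%) of aged replicate 1 and in 0 of its plasma cells. The same heavy segment with Igkv4-91, the other textbook phosphatidylcholine receptor of B-1 cells, was seen in 6 B cells of that library when any UMI was accepted, and led in 5 of 89 plasma cells (5.62%). The pair of Ighv1-55 and Igkv12-89 led in 5 B cells of aged replicate 1.

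Aged replicate 2 had another leading pair, Ighv1-82 with Igkv12-44, in 19 of 87 B cells (21.8%) and 65 of 229 plasma cells (28.4%). Igkv12-44 had 1117 UMIs in 90 of 875 B cells (10.3%, interval 8.35 to 12.5) of that library. It was counted in 1.55% of T cells and 1.34% of macrophages there, and in 16 of 630 B cells of aged replicate 1. The most in a single B cell was 399 UMIs, and 38 B cells had at least 2. The immunoglobulin levels of the 19 cells with this pair are set beside those of plasma cells below.

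**Figure D2:**
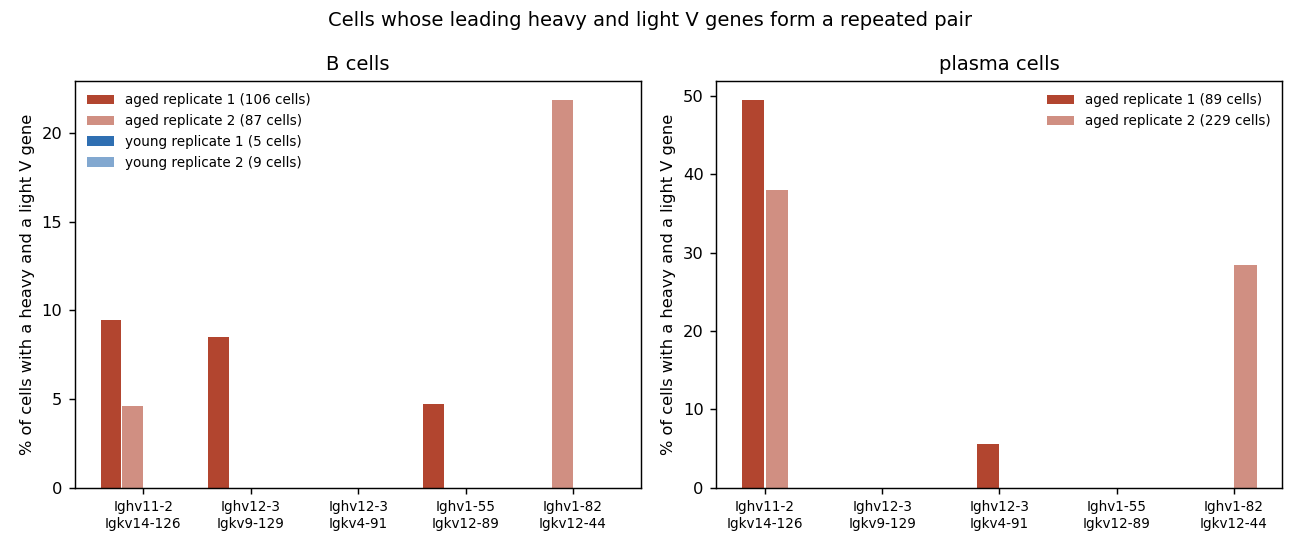
Cells whose leading heavy and light V segments form the pair named on the x axis, as a percentage of the cells of that library with both chains, in B cells (left) and in plasma cells of the aged libraries (right). Ighv11-2 with Igkv14-126 is present in B and plasma cells of both aged libraries, Ighv1-82 with Igkv12-44 in aged replicate 2, and the plasma cells of the young libraries, 4 and 1, are not drawn. The young B cells, with 5 and 9 cells, have none of these pairs.

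Cells with these pairs, chosen after their values were seen and so given as a description, differed from the other B cells of the same library in several transcripts. The 14 cells of aged replicate 1 with any UMI of both Ighv11-2 and Igkv14-126 included 0 with Fcer2a, a count that would allow up to 21.4%, against 38.8% of the other B cells. Their Ighd level was 51.7 CPM, against 482 CPM in the rest. Bhlhe41, a repressor needed for B-1 cell development, was in 11 of the 14 cells at 185 CPM, against 78.5 CPM in the rest. In aged replicate 2 it was in 1 of the 5 cells with this pair at 45.3 CPM, against 56.0 CPM in the rest. In aged replicate 1 the calcium-binding protein gene S100a6 was at 4354 CPM, against 1786 CPM. These cells were also deeper, with a median of 9671 UMIs, against 3599.5. In aged replicate 2 the 5 cells had Fcer2a in 0, against 29.4% of the rest. That count would allow up to 60%, so it does not set these cells apart. They had Ighd at 136 CPM, against 441 CPM, and S100a6 at 3307 CPM, against 1102 CPM.

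The 10 cells with Ighv12-3 and Igkv9-129 had a median of 15876 UMIs, against 3599.5 in the other B cells of aged replicate 1. Fcer2a was in 0 of them, a count that would allow up to 30%, against 38.5% of the rest. S100a6 was at 4533 CPM, against 1747 CPM. The tetraspanin gene Cd9 was at 360 CPM, against 97.3 CPM, whereas the 14 cells with Ighv11-2 and Igkv14-126 had it at 73.8 CPM, against 113 CPM, in aged replicate 1, and the 5 cells of aged replicate 2 at 181 CPM, against 86.9 CPM. Bhlhe41 was in 9 of the 10 cells at 212 CPM, against 75.7 CPM. The 19 cells of aged replicate 2 with Ighv1-82 and Igkv12-44 held Igkc at 361129 CPM and Ighm at 31595 CPM, against 13233 and 3380 CPM in the rest. Plasma cells of that library held these at 524542 and 46700 CPM. The 19 cells had Jchain in 6 cells, and S100a6 at 315 CPM, against 1154 CPM in the rest. Whether they are antibody-secreting cells that stayed under the Jchain limit of the rule was not tested.

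Gene levels in B cells were compared between the ages on UMIs summed per library, in edgeR's quasi-likelihood test with Benjamini-Hochberg adjustment over all genes tested. Levels in this comparison are TMM-scaled CPM, and differences are log2 of aged over young. Of 9618 genes tested, 186 passed an adjusted p of 0.05 (1.93%), of which 43 (0.447%) were higher and 143 (1.49%) lower in aged B cells. The median difference of all genes tested was -0.000434. The 27 gene lists described below hold 395 genes, of which 349 were tested, with 12 higher and 6 lower. The rule genes Cd79a, Cd79b and Ms4a1 were among those that did not pass.

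The number of calls moved with the libraries included. Without young replicate 2 the number of genes called was 23, against 448 without aged replicate 2, 282 without aged replicate 1 and 182 without young replicate 1. Of the 18 list genes called, 0 kept the call without young replicate 2 (adjusted p from 0.0626 to 0.234, edgeR) and 2, Bcl2a1b and Fcgr2b, kept it without young replicate 1. None of them changed sign in any alternative. With B cells defined by at least 6 rule UMIs, 19 genes were called and 0 of the 18 passed, at adjusted p between 0.0515 and 0.12. With B cells that carried at least 3 fibroblast UMIs left out, 11 of the 18 did not pass, at adjusted p of up to 0.361 (edgeR).

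The immunoglobulin genes Igkc and Ighm and the chaperone gene Mzb1 rose in aged B cells. The kappa constant gene Igkc was at 16459 and 28335 CPM in aged B cells, against 7652 and 8682 CPM in young B cells. Both aged libraries lay above both young libraries, with aged replicate 2 the highest (log2 difference 1.46 ± 0.227 (SE), edgeR adjusted p = 0.0206). Without the 19 cells of the Ighv1-82 and Igkv12-44 pair the difference was 0.89 and still passed, at adjusted p = 0.032. It did not pass without young replicate 1 (1.39) or without young replicate 2 (1.60).

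Ighm averaged 4521 ± 207 CPM in aged B cells and 2656 ± 162 CPM in young B cells (SD, n = 2 each). The libraries of each age lay close together (log2 difference 0.77 ± 0.136, edgeR adjusted p = 0.0313). Without the cells of the Ighv1-82 and Igkv12-44 pair Ighm stood at 0.57 and did not pass, and without young replicate 1 (0.86) or young replicate 2 (0.76) it did not pass either. Of the 5 heavy chain constant genes tested Ighm alone was called. Ighd had 500 and 451 CPM in aged B cells, against 846 and 604 CPM in young B cells. The aged libraries were the lower ones, but the difference of -0.60 did not pass (adjusted p = 0.15, edgeR). Of the 4 light chain constant genes Igkc alone was called, and Iglc2 and Iglc3 had differences of 0.33 and 0.43.

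Plasma cells held these transcripts at far higher levels, and Igkc was also counted in cells that do not make it. Igkc was at 478325 and 524542 CPM unscaled in aged and at 489240 and 536056 CPM in young plasma cells. In T cells Igkc was at 247 and 456 CPM in aged and at 11.3 and 4.42 CPM in young libraries. The T cell level in aged libraries is a small part of the 15277 and 27583 CPM unscaled in their B cells, and the part of free plasma cell RNA in the B cell difference was not tested beyond this. Mzb1, a chaperone for IgM that is abundant in marginal zone, B-1 and plasma cells, was at 1010 and 923 CPM in aged B cells and at 407 and 503 CPM in young B cells. Its aged values were about alike and above the young ones (difference 1.08 ± 0.169, edgeR adjusted p = 0.0206). It did not pass when young replicate 2 (1.30) or young replicate 1 (0.97) was left out. Of the 17 plasmablast and secretory genes tested Mzb1 alone was called, and the list median was 0.36. Xbp1, the factor that drives the secretory programme, had a difference of 0.22 (adjusted p = 0.652, edgeR).

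Fcer2a, a gene of follicular B cells, and Cxcr4, a chemokine receptor gene, fell in aged B cells. Fcer2a was at 183 and 159 CPM in aged B cells, against 400 and 299 CPM in young B cells. The ages did not overlap (difference -1.02 ± 0.191, edgeR adjusted p = 0.0383). After thinning to 1000 UMIs, Fcer2a was seen in 18.7% and 16.2% of aged and in 40.2% and 27.0% of young B cells. The unthinned shares were 37.9% and 29.3% of aged and 59.6% and 47.7% of young B cells.

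Of the 15 follicular and naive genes tested 2 fell, Fcer2a among them, and 0 rose, and 13 had a difference below 0, with a median of -0.49. Among those that did not pass were the chemokine receptor gene Ccr7 at -0.88, S1pr1, the receptor for exit from lymphoid tissue, at -0.59 and the complement receptor Cr2 at -0.60. Klf2, a factor that keeps lymphocytes quiescent and the most abundant of the list, stood at -0.39. Cxcr4, the receptor for Cxcl12, is in the homing list. It was at 130 and 90.4 CPM in aged B cells and at 282 and 206 CPM in young B cells, with no overlap (difference -1.13 ± 0.235, edgeR adjusted p = 0.0499). Of the 22 homing genes tested 2 fell, Cxcr4 among them, and 0 rose, and the list median was -0.03, with the cytoskeletal gene Coro1a the most abundant at 0.37. Without young replicate 2 the differences were -1.17 for Fcer2a and -1.30 for Cxcr4, and without young replicate 1 -0.78 and -0.87, and none passed.

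**Figure D3:**
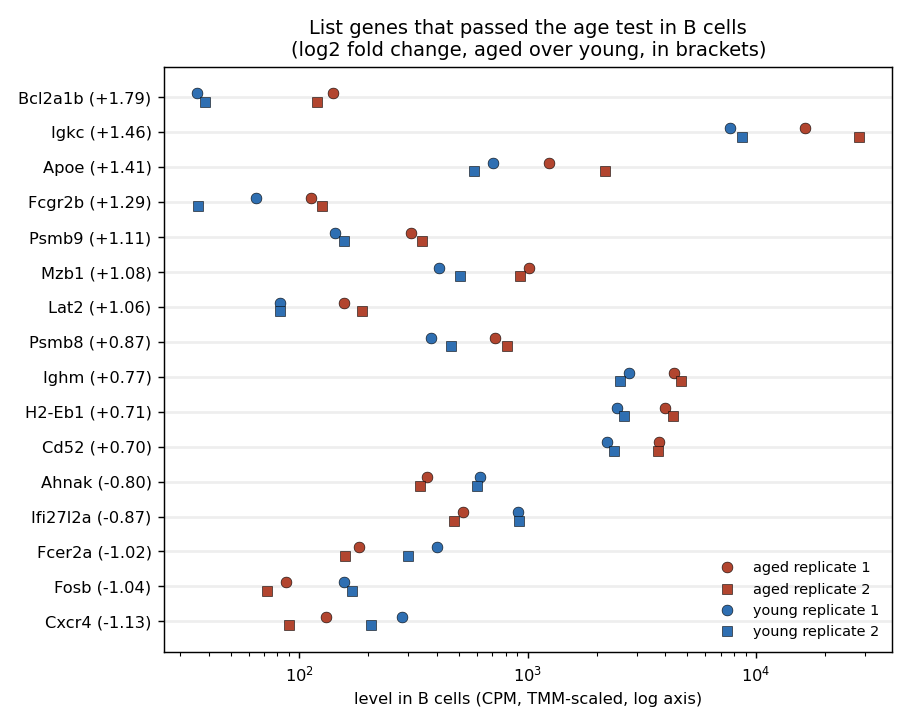
Level of the list genes described in the text that passed the age test, Mki67 apart, as TMM-scaled CPM on a log axis, with 1 point per library and the log2 difference in brackets. Aged points lie to the right of both young points for the genes from Bcl2a1b to Cd52 and to the left of them for those from Ahnak to Cxcr4.

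B cells without Fcer2a were then described within each library, as they were the larger group in every library of both ages. After thinning, 499 and 710 aged and 55 and 89 young B cells had no Fcer2a UMI, a group that also takes in cells whose transcript was missed, and 115 and 137 aged and 37 and 33 young B cells had one. Over the 264 genes of the lists and marker lists with at least 60 UMIs in the aged cells, the mean log2 ratio of cells without to cells with Fcer2a was highest for the integrin gene Itgb1, at 2.64. Cd9 followed at 1.93, S100a6 at 1.90, Lgals1 at 1.89 and Bhlhe41 at 1.89. Markers of other cell types were also higher in the cells without Fcer2a, with Apoe at 1.35, Mgp at 0.88, Col1a2 at 0.83, Kap at 0.82, Lyz2 at 0.70 and Dcn at 0.52, while C1qa was at -0.46, and their part in the split was not tested. The ratio was lowest for Ighd, at -0.96. S100a6 was at 1407 and 761 CPM in aged cells without Fcer2a, against 209 and 328 CPM in aged cells with it. The young libraries had the same order, with 1036 and 978 CPM without Fcer2a, against 81 and 182 CPM with it.

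Few members of the lists for B cell subsets passed the age test. Of the 17 B-1 genes tested 0 rose and 1 fell, and the list median was 0.41. Crip1, the most abundant of them, stood at 0.22. The gene that fell was Ahnak, a large scaffold protein, at 362 and 337 CPM in aged and 618 and 599 CPM in young B cells (difference -0.80 ± 0.154, edgeR adjusted p = 0.0414). Fibroblasts held more Ahnak than B cells did, and without the B cells that carried fibroblast UMIs the difference was -0.39 and did not pass. With young replicate 2 left out it stood at -0.77, without young replicate 1 at -0.75 and without aged replicate 2 at -0.77, and none of these passed. Bhlhe41 was at 89.5 and 57.4 CPM in aged and at 25.0 and 28.4 CPM in young B cells. The aged libraries were the higher ones, but the difference of 1.45 did not pass (adjusted p = 0.095, edgeR). Of the marginal zone list Mzb1 alone was called among 9 tested.

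The list of genes described in age-associated B cells had a median of 1.31 over 17 tested members, with 15 above 0, but 1 member called. That member was Apoe, a lipid carrier, at 1238 and 2174 CPM in aged B cells and at 707 and 583 CPM in young B cells. The aged libraries lay above the young ones (difference 1.41 ± 0.257, edgeR adjusted p = 0.0353). Apoe is 1 of the macrophage markers, its B cell level was 5.09% of that in macrophages, and the part of macrophage RNA in the result was not tested. After thinning, a UMI of Apoe was seen in 46.4% and 54.8% of aged and 47.8% and 38.5% of young B cells, so the ages overlapped, and in 25.1% and 26.3% of aged and 29.2% and 23.5% of young T cells. Without young replicate 2 the difference was 1.32 and without young replicate 1 it was 1.57, and neither passed. Zbtb32, a repressor of proliferation in memory and B-1 cells, was at 48.5 and 47.4 CPM in aged and 21.4 and 15.5 CPM in young B cells. No aged value overlapped a young one, and the difference of 1.41 did not pass (adjusted p = 0.0708, edgeR). Fcrl5, an inhibitory receptor, had 60.6 and 31.9 CPM in aged and 10.7 and 5.16 CPM in young B cells (difference 2.61, adjusted p = 0.0864, edgeR).

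Of the 13 inhibitory receptor genes tested 1 rose and 12 had differences above 0, with a median of 0.32. The gene that rose was Fcgr2b, the IgG receptor that damps B cell receptor signals, at 112 and 126 CPM in aged and at 64.3 and 36.1 CPM in young B cells. Aged values lay above young values (difference 1.29 ± 0.267, edgeR adjusted p = 0.0495), though without young replicate 2 the difference was 0.94 and did not pass. Macrophages held more Fcgr2b, the B cell level being 17.5% of theirs. Of the 23 genes of the B cell receptor complex and its signalling 1 rose, with a list median of 0.09. This was Lat2, an adaptor of receptor signalling, at 157 and 187 CPM in aged and 82.1 and 82.6 CPM in young B cells. The ages did not overlap (difference 1.06 ± 0.204, edgeR adjusted p = 0.0414). With young replicate 2 left out it stood at 1.11 and without young replicate 1 at 1.08, and neither passed. Pax5 had a difference of -0.56 that did not pass. The most abundant inhibitory member was Ptpn6, a phosphatase, at a difference of 0.35.

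Of the antigen presentation genes 3 rose in aged B cells. Of 15 genes of the class II pathway 14 had differences above 0, with a median of 0.41, and 1 was called. H2-Eb1, a class II beta chain, was at 4003 and 4342 CPM in aged and at 2460 and 2626 CPM in young B cells (difference 0.71 ± 0.136, edgeR adjusted p = 0.041). H2-Aa at 0.54 and H2-Ab1 at 0.57, the other main chains, did not pass (both at adjusted p = 0.0907, edgeR). Cd74, the invariant chain and the most abundant member, averaged 14697 CPM in aged and 10946 CPM in young B cells, and did not pass (0.42, adjusted p = 0.134, edgeR). Of 16 class I genes 15 were above 0, with a median of 0.49, and 2 were called, both of them subunits of the immunoproteasome, which cuts the peptides for class I. The most abundant member, the class I chain H2-D1, stood at 0.54 (adjusted p = 0.107, edgeR). Psmb9 was at 309 and 342 CPM in aged and at 143 and 157 CPM in young B cells, with no overlap (difference 1.11 ± 0.177, edgeR adjusted p = 0.0216). Psmb8 averaged 766 ± 69.4 CPM in aged and 419 ± 57.1 CPM in young B cells (difference 0.87 ± 0.171, edgeR adjusted p = 0.0437). When young replicate 2 was left out H2-Eb1 stood at 0.81, Psmb9 at 1.24 and Psmb8 at 1.07, without young replicate 1 at 0.70, 1.08 and 0.77, and none passed. Psmb8 also missed without aged replicate 2, at 0.75.

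Other single members were called in the lists of survival, NF-kB, interferon and immediate early genes. Bcl2a1b, a survival gene induced by NF-kB, was at 140 and 119 CPM in aged and at 35.7 and 38.7 CPM in young B cells, the widest difference of these 4 (1.79 ± 0.241, edgeR adjusted p = 0.0123). It belongs to a family of near-identical copies, so the count may be shared with them. The most abundant NF-kB gene, Nfkbia, stood at 0.29 and did not pass. Cd52, a short surface glycoprotein of lymphocytes, averaged 3737 ± 19.8 CPM in aged and 2305 ± 104 CPM in young B cells (difference 0.70, edgeR adjusted p = 0.0414). Ifi27l2a, an interferon-induced gene, fell, with 523 and 474 CPM in aged and 910 and 911 CPM in young B cells (difference -0.87, edgeR adjusted p = 0.0294). In T cells Ifi27l2a was at 577 and 561 CPM unscaled in aged and at 976 and 1071 CPM in young libraries. Its B cell level was 21.6% of that in macrophages, and the part of RNA from other cells in the fall was not tested. The rest of its list of 15 did not pass, and the median was -0.20. The immediate early gene Fosb was at 87.1 and 72.3 CPM in aged and at 157 and 170 CPM in young B cells (difference -1.04, edgeR adjusted p = 0.035). Of 16 immediate early genes 13 were below 0, and the median was -0.34, with Jund the most abundant at -0.13. Without young replicate 2 the differences were 1.91 for Bcl2a1b, 0.79 for Cd52, -0.82 for Ifi27l2a and -0.93 for Fosb, and none passed.

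A few aged B cells carried cell cycle transcripts. B cells with at least 3 UMIs of 10 cell cycle genes numbered 6 of 630 (0.952%, interval 0.350 to 2.06) and 7 of 875 (0.80%, 0.322 to 1.64) in aged capsules. In young capsules there were 0 of 94 and 0 of 128, which allows up to 3.19% and 2.34%, so the shares cannot be told apart at this depth. These cells held 466 of the 509 and 277 of the 310 cycle UMIs of aged B cells and were deep, with medians of 14743 and 11993 UMIs. Of them 1 and 3 were marked as likely doublets.

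In the summed counts the proliferation gene Mki67 was at 33.4 and 21.5 CPM in aged and at 0 and 2.58 CPM in young B cells (difference 4.13, edgeR adjusted p = 0.0499), a value fitted against 1 young UMI. It missed in 7 of 14 alternatives, among them the omission of young replicate 1 (3.41) and that of young replicate 2 (8.76). Top2a, needed to separate chromosomes, had 172 UMIs in aged and 0 in young B cells, at least 6.38-fold higher by the limit of 3 UMIs over the young libraries, and did not pass (adjusted p = 0.0613, edgeR). The cell cycle list had a median of 2.25 over 14 tested genes, 13 of them above 0, and its most abundant member, Hmgb2, stood at 0.56 and did not pass.

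**Figure D4:**
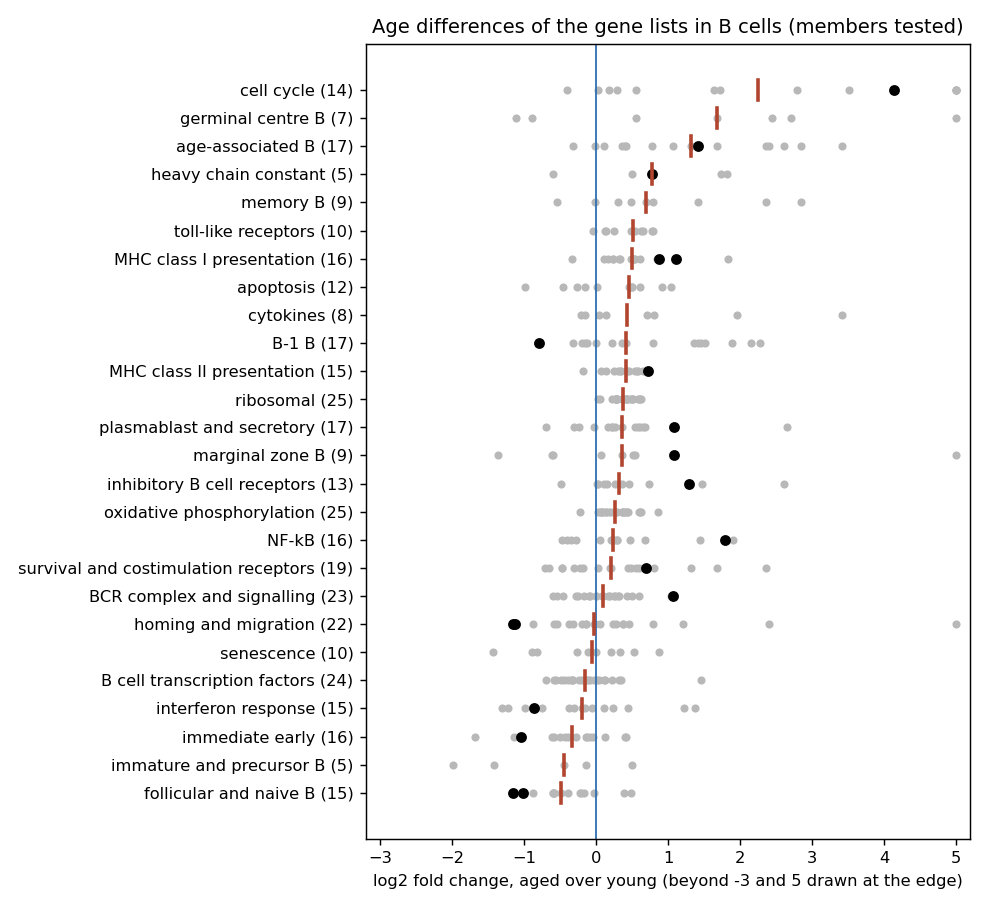
Log2 difference, aged over young, of each tested member of the gene lists with at least 5 tested members, with called genes in black, other members in grey and the list median as a red bar. Follicular and immediate early genes lie mostly below 0, class I, class II and ribosomal genes mostly above 0, and most members of every list did not pass.

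The remaining lists had 0 called genes. The 25 ribosomal protein genes were all above 0, with a median of 0.37, and 24 of 25 oxidative phosphorylation genes were above 0, with a median of 0.26. Their most abundant members were Rps24, at 0.35, and Atp5e, at 0.36. The 24 B cell transcription factors had a median of -0.16, the 10 Toll-like receptor genes 0.50, the 9 memory genes 0.70 and the 7 germinal centre genes 1.68. The 12 apoptosis genes had a median of 0.46, the 10 senescence genes -0.06, the 8 cytokine genes 0.42 and the 5 precursor genes -0.44. Il10, a suppressive cytokine that B-1 cells can make, was at 23.1 and 10.0 CPM in aged and at 0 and 2.58 CPM in young B cells (adjusted p = 0.167, edgeR). The most abundant members of the other lists without a call were Klf2 for the transcription factors, Ly86 for the Toll-like receptors at 0.53, Itgb1 for memory at 0.79 and Basp1 for the germinal centre at -1.12. They were Mcl1 for apoptosis at 0.46, Cdkn1b for senescence at -0.27, the lymphotoxin gene Ltb for cytokines at 0.13 and Ebf1 for precursors at -0.15.

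Outside the lists, the largest rises among genes at 50 CPM or more were in Cacna1s, a calcium channel subunit, at 2.84, and Lipc, hepatic lipase, at 2.54. The histone gene Hist1h2ap was at 185 and 155 CPM in aged and at 35.7 and 46.4 CPM in young B cells (difference 2.03 ± 0.241, edgeR adjusted p = 0.00703). It kept its call in all 16 alternatives. Odc1, the first enzyme of polyamine synthesis, was at 138 and 118 CPM in aged and at 46.4 and 61.9 CPM in young B cells (1.21). Ass1, an enzyme of arginine synthesis, was at 98.1 and 73.4 CPM in aged and at 32.1 and 25.8 CPM in young B cells (1.59). The cold-induced RNA-binding gene Rbm3 was at 605 and 668 CPM in aged and at 332 and 289 CPM in young B cells (1.04). For each of these the aged libraries lay above the young libraries. The others named by the rule were Aldh3b1 at 1.88, Tnfaip8 at 1.22, Sp140 at 1.21, Fam104a at 1.18, Csnk2b at 1.05 and Pycard, the inflammasome adaptor, at 1.01. The 12 named rises lost 11 calls without young replicate 2, Hist1h2ap being the exception, and without young replicate 1 they lost 8. At 6 rule UMIs they lost 11, and without B cells carrying fibroblast UMIs 6.

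Most genes that fell were more abundant in another cell class than in B cells. The classes compared were plasma cells, T cells, macrophages and fibroblasts. Endothelium was not among them, so its part in the falls was not tested. Of the 143 falls, 114 had fibroblasts as the class with the highest level outside B cells. In 115 the B cell level was under 50% of that in another class. Over all 9618 genes tested, 3069 had fibroblasts as that class and 2930 were under 50%. Of the 43 rises, 12 were under 50% of another class. Elastin (Eln) was at 7.57 and 8.15 CPM in aged and 85.7 and 108 CPM in young B cells (difference -3.63), and the microfibril gene Fbn1 at 39.2 and 50.4 CPM in aged and 407 and 325 CPM in young B cells (-3.02). T cells of the same libraries gave Fbn1 at 55.8 and 66.9 CPM unscaled in aged and at 349 and 412 CPM in young capsules, close to the B cell values. The fatty acid carrier gene Fabp4 was at 168 and 148 CPM in aged and 1764 and 1277 CPM in young B cells (-3.26). In T cells Fabp4 was at 162 and 159 CPM unscaled in aged and at 1226 and 349 CPM in young capsules.

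The other falls named by the rule were Col5a2, Krtdap, Col6a2, Gpihbp1, Sfrp2, Serpinh1, Igfbp6, Sbsn and Col5a1, with differences between -3.14 and -2.73. Of the classes compared, fibroblasts had the highest level for all of these but Gpihbp1. The 12 named falls lost 6 calls without young replicate 2 and 9 at 6 rule UMIs (adjusted p of up to 0.337, edgeR). Without the B cells that carried at least 3 fibroblast UMIs the count of called genes was 71, with 20 higher and 51 lower, and 51 of the 186 were among them. Only 5 of the 12 named falls had a value in that fit, and 4 of these kept the call. Leaving out genes under 50% of another class gave 159 calls, 69 higher (43.4%) and 90 lower, against 23.1% higher among the 186 calls. That filter takes out 115 of the 143 falls and 12 of the 43 rises.

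The age difference in B cells was set against that in T cells and in macrophages of the same libraries, by an interaction term on UMIs summed per library and class. Each comparison shares its libraries with the B cell test above, so the values are not independent of it. Against T cells, 1 of 11353 genes differed (0.00881%), and 863 had an unadjusted p under 0.05 (7.6%). This was Igkc, with a difference of -4.10 ± 0.258 (edgeR adjusted p = 0.000543). Its log2 change was 1.59 in B cells and 5.65 in T cells, which do not make it. Changes within a class, here and below, come from separate fits on each class without the filter on low counts. They therefore need not subtract to the difference or match the values of the B cell test above. Cxcr4 had a difference of -1.26 that did not pass (adjusted p = 0.0975, edgeR).

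Against macrophages, 61 of 14822 genes differed (0.412%), 19 of them with the B cell change above that in macrophages (0.128%) and 42 below (0.283%). An unadjusted p under 0.05 was found for 1506 genes (10.2%). Ass1 stood at 1.73 in B cells and at -1.66 in macrophages. In the interaction fit its level was 99.4 and 73.9 CPM in aged and 29.8 and 24.3 CPM in young B cells, and 15.2 and 67.4 CPM in aged and 88.4 and 169 CPM in young macrophages. The difference between the classes was 3.66 (edgeR adjusted p = 0.0299). Odc1 stood at 1.36 in B cells and at -0.74 in macrophages, with an interaction term of 2.06 (edgeR adjusted p = 0.00365). Hist1h2ap stood at 2.17 in B cells and 0.09 in macrophages, with an interaction term of 2.08. Cxcr4 had a difference of -1.28 (edgeR adjusted p = 0.00716). Leaving out 1 library gave between 13 and 245 genes, 13 of them without young replicate 2 and 23 without young replicate 1.

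**Figure D5:**
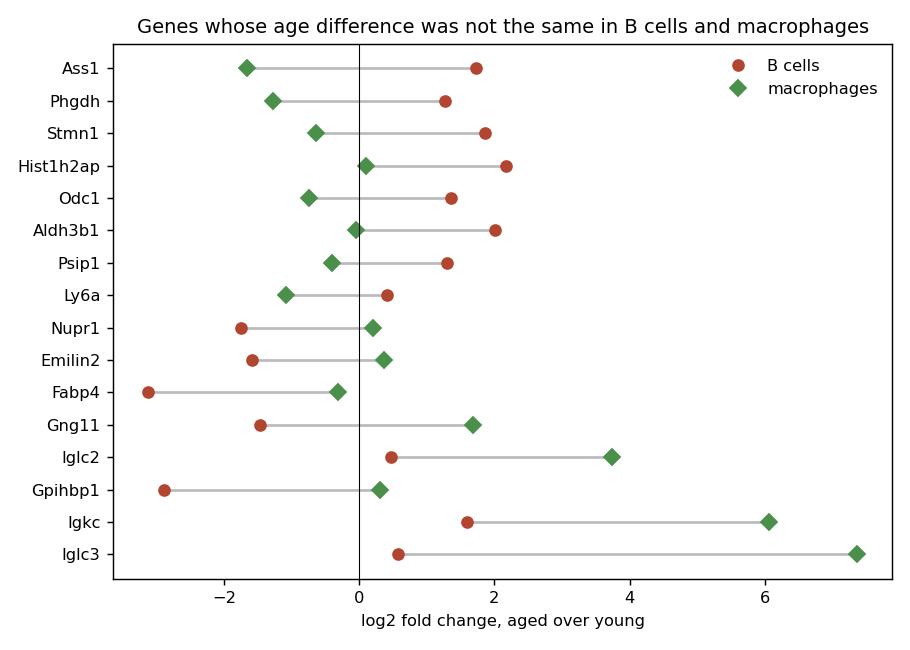
Log2 difference, aged over young, in B cells (circles) and macrophages (diamonds), for the genes named by the rule among those whose age difference was not the same in the 2 classes, with a line joining the values of a gene. The values come from separate fits on each class, not from the interaction fit. From Ass1 to Ly6a the B cell value is the higher, and from Nupr1 to Iglc3 the macrophage value is.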

How the data were processed

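Single-cell RNA was profiled in 4 libraries of whole renal capsule, 2 from aged and 2 from young mice, grouped by the titles in the labels. The deposited files hold counts of UMIs per gene and barcode, raw and not normalized. Per the submitters' processing notes the authors made these counts with Cell Ranger 6.0.2 on GRCm38, and per the file headers with version 6.0.1. Neither the gene annotation nor the settings are stated in the sources used here. Barcodes had been called as cells by the authors.

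Members were found by the stated UMI rule. Levels are UMIs summed per library and class, as CPM. Age was tested in edgeR 4.0.16 (R 4.3.3, quasi-likelihood, TMM scaling, filterByExpr, Benjamini-Hochberg adjustment), and differences between classes by an interaction term with library as a term. T cells, macrophages, fibroblasts and plasma cells were called by UMI thresholds on their own markers. In simulated B cell counts 20% of 2-fold and 64% of 4-fold changes were called, and 68% of 4-fold differences against T cells. Doublet scores came from Scrublet (scanpy 1.11.5, Python 3.11.15). DESeq2 1.42.0 was an alternative. Counts of the replicates varied beyond counting error, with chi-square over degrees of freedom of 5.98 in aged and 1.99 in young B cells. Intervals (95%, exact binomial) and limits for 0 counts (3 counts) cover counting error only. Thinned values leave out B cells under 1000 UMIs, 16 and 28 in aged and 2 and 6 in young libraries. Genes named in the age test were every called list member, the most abundant member of each list, and the 12 largest called rises and 12 largest called falls outside the lists at a mean of at least 50 CPM in an age, with the libraries of the ages not overlapping. Unofficial symbols, mitochondrial and ribosomal genes, V segments, markers of other classes and rule genes were left out of the genes taken from outside the lists. Of the class differences the 8 largest in each direction at that level were named. The members, the lists and the tests were chosen with earlier results of these data known. Results for 2 genes of the lists are not reported here.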

Additional observations from a re-analysis of the deposited data

Results flagged for a closer look

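The age effect of 17 named differences in B cells was not the same as in another class of the same libraries by the interaction test (edgeR, adjusted p under 0.05), with values given as the log2 change in B cells minus that in the other class. Against T cells this was Igkc, at -4.10, whose T cell level was 247 and 456 CPM unscaled in aged and 11.3 and 4.42 CPM in young libraries.

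Against macrophages the B cell change was higher by 3.66 for Ass1, by 2.48 for the serine synthesis gene Phgdh, by 2.43 for the microtubule regulator Stmn1 and by 2.08 for Hist1h2ap. It was higher by 2.06 for Odc1, by 2.00 for Aldh3b1, by 1.63 for Psip1 and by 1.54 for Ly6a. In the separate fits on each class Phgdh stood at 1.27 in B cells and at -1.27 in macrophages, and Stmn1 at 1.86 and -0.64.

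The B cell change was below that in macrophages for the light chain genes, with -5.98 for Iglc3, -4.50 for Igkc and -3.31 for Iglc2. The Iglc3 value depends on a prior count, as young macrophages held 0 UMIs of it. It was also below for Gpihbp1 at -3.32, Gng11 at -3.27, Fabp4 at -2.84, Emilin2 at -2.03 and Nupr1 at -2.03. Of the 16 differences against macrophages 5 kept their call in every alternative that gave them a value, namely Igkc, Gpihbp1, Iglc2, Gng11 and Fabp4. Igkc and Iglc2 had no value where immunoglobulin genes were left out.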

How the results depend on the processing

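No value reversed. The count of genes changed with age (186) was 594 of 19662 genes without a filter on low counts, where the median difference was 0.33, 19 at 6 rule UMIs and 71 without B cells carrying fibroblast UMIs, an alternative chosen after seeing the data. Leaving out 1 library gave 23 to 448. It stayed within 1.5 times under DESeq2 size factors (215), the DESeq2 test (177, with 155 shared), doublets removed (247), no immunoglobulin genes (210), a free RNA limit (206), switched cells left out (196), and, added later, genes under 50% of another class left out (159) and the Ighv1-82 and Igkv12-44 cells left out (176). Replicate numbers are shared between the ages, but deviations of same-numbered libraries correlated at 0.135 with only 2 pairs, so the numbers were not taken as pairs. With the replicate as a block 529 genes were called, 174 higher and 355 lower.

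The T cell comparison (1 gene) gave 153 without the filter, 24 to 119 with 1 library left out, 6 with doublets removed and 0 without immunoglobulin genes. The macrophage comparison (61) gave 100 under DESeq2 size factors, 304 without the filter, 13 to 245 with 1 library left out and 459 with doublets removed. For these fits the cause was not tested. The share of cells with a switched heavy chain differed by 0.432 points and was 0 at 10 UMIs. With 1 library left out it ranged from 0.229 to 0.635, that of B cells from 6.12 to 8.13 and the lambda share from -5.06 to -1.40 points.

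Named genes gave 501 comparisons with an alternative on the same side of the threshold and 135 that no longer passed, with 0 changes of sign. Of the 42, 3 kept every call where they had a value: Hist1h2ap in 16 alternatives, Eln in 14 and Fbn1 in 15. Eln and Fbn1, at 22.8% and 12.6% of their fibroblast level, had no value when genes under 50% of another class were left out. Where an alternative left a library alone in its age, its spread was assumed to be like that of the other age. The 94 and 128 young B cells and the marker threshold both limit the calls, of which 38 of 42 named ones were lost at 6 rule UMIs: small changes, rare cells and V pairs of young capsules were not detectable at this depth.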

Other observations

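Some ligands of B cell receptors differed with age in neighbouring classes. These genes were chosen after their values were seen, and levels are unscaled CPM with no test. Cxcl13, the ligand of the follicle-homing receptor Cxcr5, was at 284 and 219 CPM in aged macrophages, against 61.5 and 17.4 CPM in young macrophages. In fibroblasts it was at 164 and 153 CPM in aged, against 176 and 157 CPM in young libraries. Cxcl12, the ligand of Cxcr4, was at 658 and 630 CPM in aged fibroblasts, against 138 and 128 CPM in young fibroblasts. In macrophages it overlapped, at 50.3 and 55.2 CPM in aged, against 57.4 and 45.8 CPM in young libraries. Tnfsf13b, the survival factor BAFF, was at 45.3 and 46.0 CPM in aged fibroblasts, against 25.6 and 21.7 CPM in young fibroblasts. Aged values lay above young values for Cxcl13 in macrophages and for Cxcl12 and Tnfsf13b in fibroblasts.

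Transcripts of AC133103.1 and AC168977.1, genes known only by clone names and also chosen after their values were seen, separated the libraries by age in several classes. AC133103.1 was at 71.9 and 67.1 CPM in aged B cells and at 0 in both young libraries. In macrophages it was at 13.6 and 10.8 CPM in aged and at 0.1 CPM in both young libraries, and in fibroblasts at 38.0 and 32.7 CPM in aged, against 0 and 0.1 CPM in young libraries. AC168977.1 was at 87.5 and 76.1 CPM in aged B cells, against 0 and 2.58 CPM in young B cells.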
